A study of Mus musculus with 12 samples.

Results

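Wild-type testes were compared between 20 and 15 days after birth (P20 and P15), a window in which the first wave of spermatogenesis passes through meiosis. The comparison used 6 of the 12 arrays of the series, 3 of WT P20 testes and 3 of WT P15 testes, chosen by genotype and age, and it covered all 45281 probes. All mice were of the C57Bl/6N strain, and the other 6 arrays came from Topaz1-/- (KO) testes, 3 of P20 and 3 of P15. Each sample was one total RNA preparation of testis on one Illumina bead array, and the submitters call the 3 samples of a group biological repeats. The study asks what the loss of Topaz1, a germ cell factor, does to male meiosis, and the WT arrays give the normal course of the same days.

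In the juvenile mouse testis the germ cells of the first wave advance almost in step, so that age stands in for stage. Spermatogonia divide by mitosis and enter meiosis under retinoic acid, spermatocytes pair and recombine their chromosomes during a long prophase, and at the pachytene stage they switch on many genes whose products serve the later sperm. The X and Y chromosomes are silenced as a body during pachytene, and autosomal copies of some X-linked genes are used in their place. Sertoli, Leydig, peritubular, vascular and immune cells make up the somatic part of the organ. In whole tissue, fewer cells of a type and less RNA per cell cannot be told apart.

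Levels are given as log2 of the authors' quantile-normalised intensity plus 50, and a change is P20 minus P15 on that scale with the standard error (SE) of the fit. Each probe was tested with limma over all 12 arrays, and a gene, represented by its brightest probe, was called higher or lower where the Benjamini-Hochberg adjusted p over all probes was under 0.05. The intensities carry background, which compresses changes: after background correction by normexp with the same offset the changes of the called probes were larger by a median ratio of 1.31. An array's background was put at a log2 intensity of 7.52, and 50.7% of probes lay above it on each array. The arrays separated by age. On the first principal component of the 6 WT arrays, which held 89.5% of their variance, the P20 arrays lay at 34.5, 46.2 and 54.9 (replicates 1 to 3) and the P15 arrays at -54.0, -47.3 and -34.3. P20 replicate 1 and P15 replicate 3 were therefore the arrays nearest to the other age. Spearman coefficients across probes were 0.902 to 0.917 among P20 arrays, 0.912 to 0.923 among P15 arrays and 0.866 to 0.889 between the ages. With 3 arrays per age, small changes can be missed.

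Of 19057 genes, 2132 (11.2%) were higher and 3155 (16.6%) lower at P20. The counts of each gene list below stand against these shares, which include 4571 genes above background on no WT array. Over autosomal genes above background on all arrays of a WT group, 18.2% were higher and 25.6% lower. Those shares are the nearer comparison for lists made up mostly of expressed genes. Over all genes, the rises were fewer but much larger. At least 2-fold changes numbered 742 rises (3.89%) and 148 falls (0.777%), and at least 4-fold changes 263 rises (1.38%) and 1 fall (0.00525%). The median change was 0.71 among the genes called higher, -0.52 among those called lower and -0.02 over all genes. The split between directions depended on the scaling: of the 9109 called probes (20.1% of all) 41.2% were higher in these values, but 60.1% after cyclic loess normalisation, where 5082 probes were higher and 3367 lower. Leaving out P20 replicate 1 gave 2091 genes higher and 2796 lower. Transcripts above background on all P20 arrays and on no P15 array came from 229 genes, of which 193 were called higher. The reverse held for 127 genes, of which only 56 were called lower. All P20 arrays lay above all P15 arrays in 17% of genes and below them in 27.5%.

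**Figure D1:**
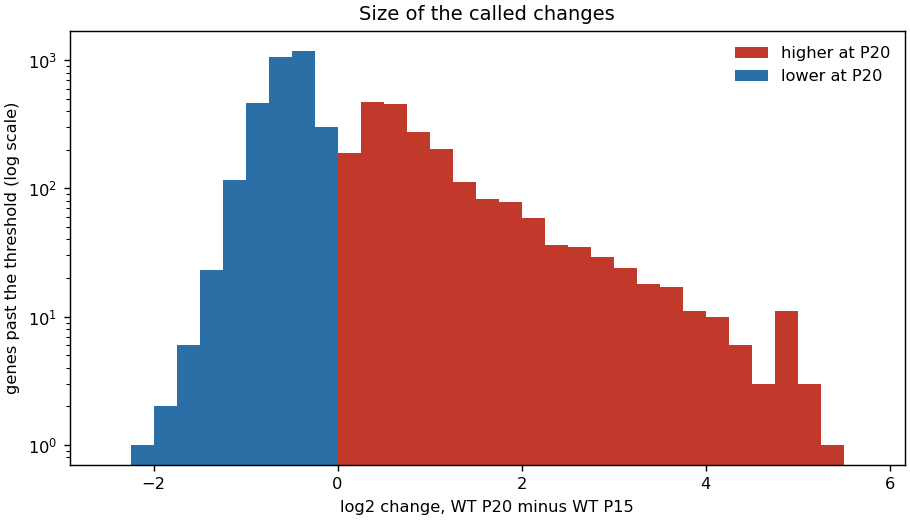
Number of genes past the threshold (log scale) in bins of 0.25 of log2 change, WT P20 minus WT P15, with genes higher at P20 in red and genes lower at P20 in blue. Rises reach beyond 5 on the log2 scale, with 34 genes at 4 or more, whereas 147 falls lie between 1 and 2 in size and 1 exceeds 2.

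The 15 largest rises, taken from genes whose arrays did not overlap between the ages, lay between 4.75 and 5.49 on the log2 scale. Pabpc2, Catsperz, Tdrd6 and Adam3 among them belong to a gene list or isozyme pair described below, and the other 11 to none. Pabpc2, a testis poly(A)-binding protein, had log2 intensities of 13.10, 13.34 and 13.79 in the P20 testes, against 7.57, 7.72 and 8.45 in the P15 testes. All P20 arrays lay far above all P15 arrays, and the change of 5.49 ± 0.26 amounted to 45.1-fold (adjusted p = 6.22e-07). Catsperz, an auxiliary subunit of the sperm calcium channel, measured 13.91, 13.96 and 14.34 in the P20 testes, against 8.06, 8.68 and 9.85 in the P15 testes. Its groups were also apart, but P15 replicate 3 already stood well above its background, and the change was 5.21 ± 0.43 (adjusted p = 2.12e-05). For Tdrd6, a scaffold of the chromatoid body of spermatids, the values were 12.96, 13.21 and 13.51 in the P20 testes, against 7.75, 8.03 and 9.06 in the P15 testes. This rise of 4.94 ± 0.30 was 30.8-fold (adjusted p = 2.67e-06). Adam3, a sperm surface protein needed for migration into the oviduct, had 11.91, 12.35 and 12.54 in the P20 testes, against 7.42, 7.47 and 7.66 in the P15 testes. Only 1 P15 array was above background for it, and the change was 4.75 ± 0.14 (adjusted p = 3.73e-08).

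The other rises among the 15 largest were 1700001J11Rik (5.23), Plaat5 (5.03), Rasl2-9 (4.98), Adam32 (4.96), Hspb9 (4.93), 1700020D05Rik (4.92), Qrich2 (4.92), Pebp4 (4.90), Prps1l1 (4.80), Tcp10a (4.76) and Pbp2 (4.76). Rasl2-9 is a retrogene relative of the nuclear transport GTPase Ran, Hspb9 a small heat shock protein of testis, Qrich2 a protein of the sperm flagellum and Prps1l1 a testis copy of an X-linked enzyme of nucleotide synthesis.

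The 15 largest falls, taken in the same way, were smaller, between -1.36 and -2.08. Of them Col1a1 and Mfap4 are on the extracellular matrix list and Dlk1 on the imprinted list, and the other 12 are on none. Pdlim4, a LIM domain protein of the actin cytoskeleton, had log2 intensities of 10.04, 9.98 and 9.78 in the P20 testes, against 12.34, 12.07 and 11.64 in the P15 testes. It was the only gene called lower by at least 4-fold, with a change of -2.08 ± 0.19 (adjusted p = 4.06e-05). Dlk1, an imprinted inhibitor of differentiation that immature Leydig cells express, measured 10.68, 10.43 and 10.52 in the P20 testes, against 12.93, 12.45 and 12.02 in the P15 testes. The P15 arrays were spread more widely than the P20 arrays but did not overlap them, and the change was -1.93 ± 0.22 (adjusted p = 0.000148). Tnfrsf12a, the receptor of the cytokine TWEAK, fell by 1.87 on the log2 scale (± 0.20 SE), and Scx, a transcription factor known from tendon and, in rat, from Sertoli cells, fell by 1.71 ± 0.20. Mmp2, a matrix metalloproteinase, changed by -1.49 ± 0.19 and Bok, a member of the BCL2 family, by -1.58 ± 0.17. Mfap4, a protein of elastic fibres, changed by -1.55 ± 0.33.

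The remaining falls among the 15 largest were Sel1l3 (-1.66), Acot1 (-1.56), Nrep (-1.51), Bex2 (-1.45), Nudt19 (-1.43), Septin11 (-1.40), Col1a1 (-1.40) and Mdh2 (-1.36). For Sel1l3 1 of its 2 probes and for Acot1 1 of its 3 probes had the opposite sign. Here and below, opposite probes are counted by sign alone, whatever their level or the size of their change. The call of Col1a1, a fibrillar collagen chain, was lost without WT P20 replicate 1 or 2 or WT P15 replicate 1 or 2.

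**Figure D2:**
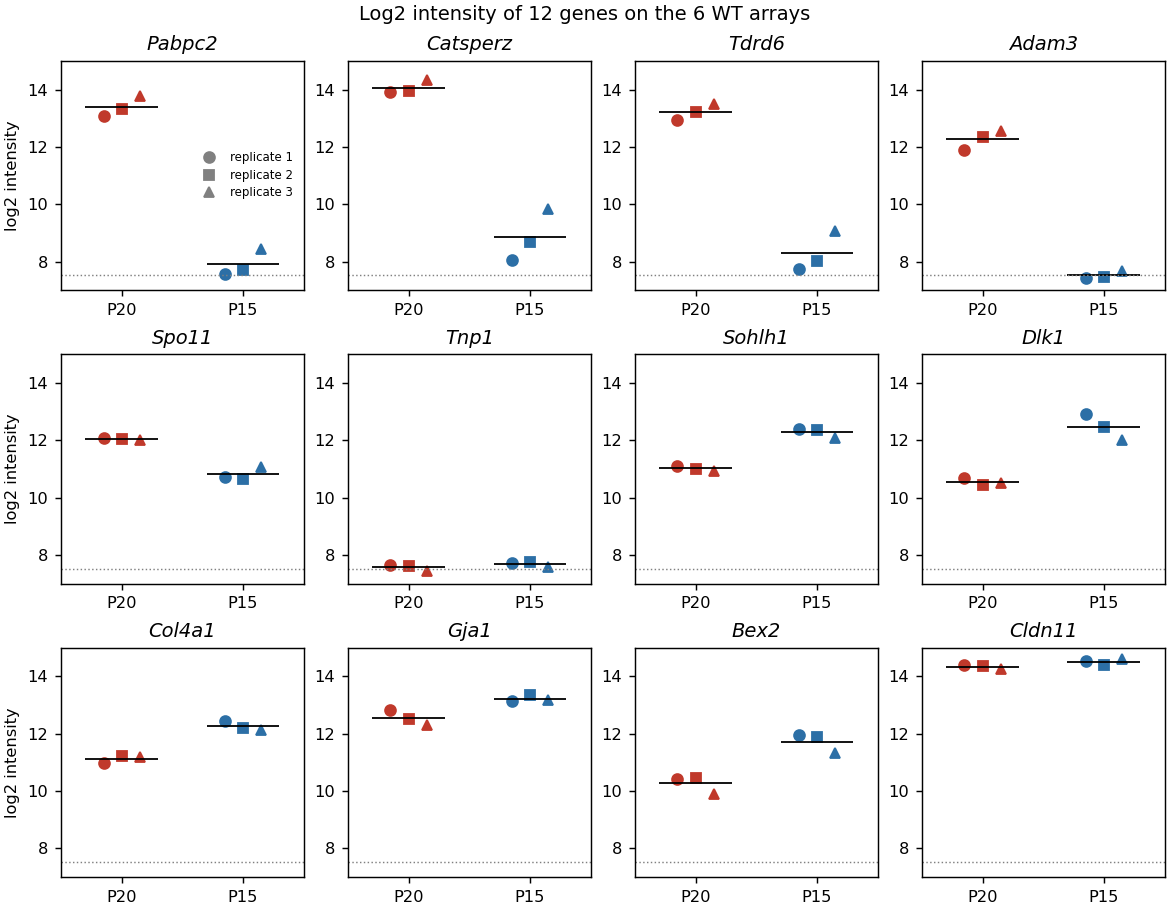
Log2 intensity of 12 genes on each WT array, P20 left and P15 right, with 1 symbol per replicate, the group mean as a bar and the background threshold (7.52) dotted. Pabpc2, Catsperz, Tdrd6, Adam3 and Spo11 lie higher at P20, Sohlh1, Dlk1, Col4a1, Gja1 and Bex2 lower, and Tnp1 and Cldn11 did not pass.

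Genes of spermatogonia were lower or did not pass, with the exception of Id4. Of 16 genes of differentiating spermatogonia, 0 rose and 10 fell, with a median of -0.71. Sohlh1, a transcription factor of spermatogonial differentiation, had 11.10, 11.02 and 10.94 in the P20 testes, against 12.41, 12.37 and 12.08 in the P15 testes. The groups did not overlap, and the change was -1.27 ± 0.18 (adjusted p = 0.000629). Uchl1, a ubiquitin hydrolase of spermatogonia, changed by -1.06 ± 0.19, and Ccnd1, cyclin D1, by -0.78 ± 0.10. Kit, the receptor of stem cell factor and named here outside the rule for choosing genes, had 10.19, 10.20 and 10.09 in the P20 testes, against 11.05, 10.85 and 10.72 in the P15 testes and a change of -0.71 ± 0.09. Stra8, the retinoic acid target that opens meiosis, was dim at both ages and had 7.79, 7.84 and 7.78 in the P20 testes, against 7.96, 7.80 and 8.03 in the P15 testes. Its groups overlapped and its change of -0.13 ± 0.12 did not pass (adjusted p = 0.589).

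Of 23 genes of undifferentiated spermatogonia, 1 rose and 8 fell, with a median of -0.16. Sall4, a zinc finger factor of germline progenitors, measured 9.17, 8.83 and 8.92 in the P20 testes, against 10.15, 10.13 and 10.05 in the P15 testes, a change of -1.14 ± 0.17 (adjusted p = 0.00106), although 1 of its 3 probes had the opposite sign. Ret, the receptor of the niche factor GDNF, changed by -0.69 ± 0.13 and Foxo1, a regulator of stem cell maintenance, by -0.64 ± 0.08. Id4, an inhibitor of basic helix-loop-helix factors that marks spermatogonial stem cells but is also made by spermatocytes, went the other way, with 9.12, 8.89 and 9.00 in the P20 testes, against 7.96, 7.81 and 8.27 in the P15 testes. All P20 arrays exceeded all P15 arrays, and the change was 0.99 ± 0.13 (adjusted p = 0.000392). Etv5 and Egr4, the brightest members that did not pass, had changes of -0.24 ± 0.16 and -0.80 ± 0.36.

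Of 28 DNA replication genes, 5 rose (17.9%) and 11 fell (39.3%), with a median of -0.21. Over all genes 11.2% rose and 16.6% fell. Over autosomal genes above background on all arrays of a WT group the shares were 18.2% and 25.6%. Mcm2, a subunit of the replicative helicase, had 9.58, 9.46 and 9.60 in the P20 testes, against 10.41, 10.41 and 10.32 in the P15 testes, a change of -0.84 ± 0.09 (adjusted p = 0.000156), and Fen1, the flap endonuclease of lagging strand synthesis, changed by -0.79 ± 0.09. Against them, Gins1, a subunit of the same helicase assembly, had 10.59, 10.72 and 10.84 in the P20 testes, against 9.70, 9.82 and 9.92 in the P15 testes and rose by 0.90 ± 0.15 (adjusted p = 0.00213). Rrm2, the small subunit of ribonucleotide reductase, changed by 0.89 ± 0.08, with 1 of its 3 probes opposite. Without P20 replicate 3 the counts were 3 rises and 7 falls, and without P20 replicate 1 or P15 replicate 1 or 2 each there were 3 rises.

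Genes of early meiotic prophase changed by modest amounts. Of 33 measured, 10 rose (30.3%) and 4 fell (12.1%), against 11.2% and 16.6% of all genes, with a median of 0.15. Of the 33, 7, among them Sycp3, Hormad1 and Tex12, were above background on no WT array. Whether such probes report their transcripts was not tested, so that a value at background on every array, here and in the lists below, is not taken as absence of the transcript. Spo11, the enzyme that makes the meiotic double-strand breaks, measured 12.09, 12.06 and 12.02 in the P20 testes, against 10.72, 10.64 and 11.08 in the P15 testes. It was well above background at P15, and its change was 1.24 ± 0.16 (adjusted p = 0.000409), with 1 of 3 probes opposite. The synaptonemal complex genes Sycp2 and Syce1 changed by 1.05 ± 0.21 and 1.05 ± 0.20, and Mlh3, a crossover factor, by 0.89 ± 0.15. Rec8, the meiotic cohesin kleisin, fell, with 9.40, 9.22 and 9.19 in the P20 testes, against 9.61, 9.56 and 9.64 in the P15 testes and a change of -0.33 ± 0.07 (adjusted p = 0.00976). That call was lost after cyclic loess, with an intensity trend and with normexp with offset 16. Smc1b and Syce3, bright members that did not pass, changed by 0.20 ± 0.18 and 0.51 ± 0.17. The list's counts rested on single arrays: 5 genes rose without P15 replicate 1, without P15 replicate 2 or without P20 replicate 1, 6 without P20 replicate 2, and the number of falls was 0 after cyclic loess and 1 without P15 replicate 2, without P20 replicate 3, without KO P20 replicate 1 or with the replicate block, and 2 without P15 replicate 3, without P20 replicate 2 or with the 6 WT arrays alone.

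Pachytene genes rose as a group. Of 26 measured genes of pachytene spermatocytes, 18 rose and 0 fell, with a median of 1.93, while Mybl1, Adam2, Adad1 and H1f6 were above background on no WT array, with the same reservation about their probes. Piwil1, the PIWI protein of pachytene piRNAs, had 13.62, 13.73 and 13.90 in the P20 testes, against 9.22, 10.54 and 11.67 in the P15 testes. Its P15 arrays spanned over 2 log2 units, none reached a P20 array, and the change was 3.28 ± 0.57 (adjusted p = 0.00245). Ccna1, the cyclin of the first meiotic division, had 10.07, 10.88 and 11.10 in the P20 testes, against 7.46, 7.67 and 7.53 in the P15 testes, a change of 3.13 ± 0.25 (adjusted p = 1.57e-05). Dkkl1, an acrosomal protein first transcribed in spermatocytes, measured 11.98, 12.48 and 12.42 in the P20 testes, against 7.75, 8.26 and 9.07 in the P15 testes, again with P15 replicate 3 the highest of its group, and changed by 3.93 ± 0.38. Tcte3, a dynein light chain relative, changed by 3.09 ± 0.49. Calr3 and Hspa1l, the brightest members that did not pass, had changes of -0.05 ± 0.05 and 0.04 ± 0.06.

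The piRNA pathway, which silences transposons and later processes the pachytene piRNAs, had 13 rises and 1 fall among 22 genes (median 0.70). The genes that moved most belong to the granules of late spermatocytes and spermatids: beside Tdrd6 and Piwil1 these were Tdrd5 (1.78 ± 0.25) and Tdrd7 (1.47 ± 0.13). Ddx4, the germ cell RNA helicase, had 10.00, 10.15 and 10.25 in the P20 testes, against 8.63, 8.91 and 9.15 in the P15 testes and changed by 1.24 ± 0.24 (adjusted p = 0.00388), with 1 of 3 probes opposite. Pld6, the mitochondrial endonuclease that starts piRNA processing, measured 9.04, 9.32 and 9.26 in the P20 testes, against 7.95, 8.11 and 8.21 in the P15 testes and changed by 1.12 ± 0.09. The bright members Gpat2 and Tdrkh had changes of 0.25 ± 0.12 and -0.03 ± 0.07 and did not pass.

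**Figure D3:**
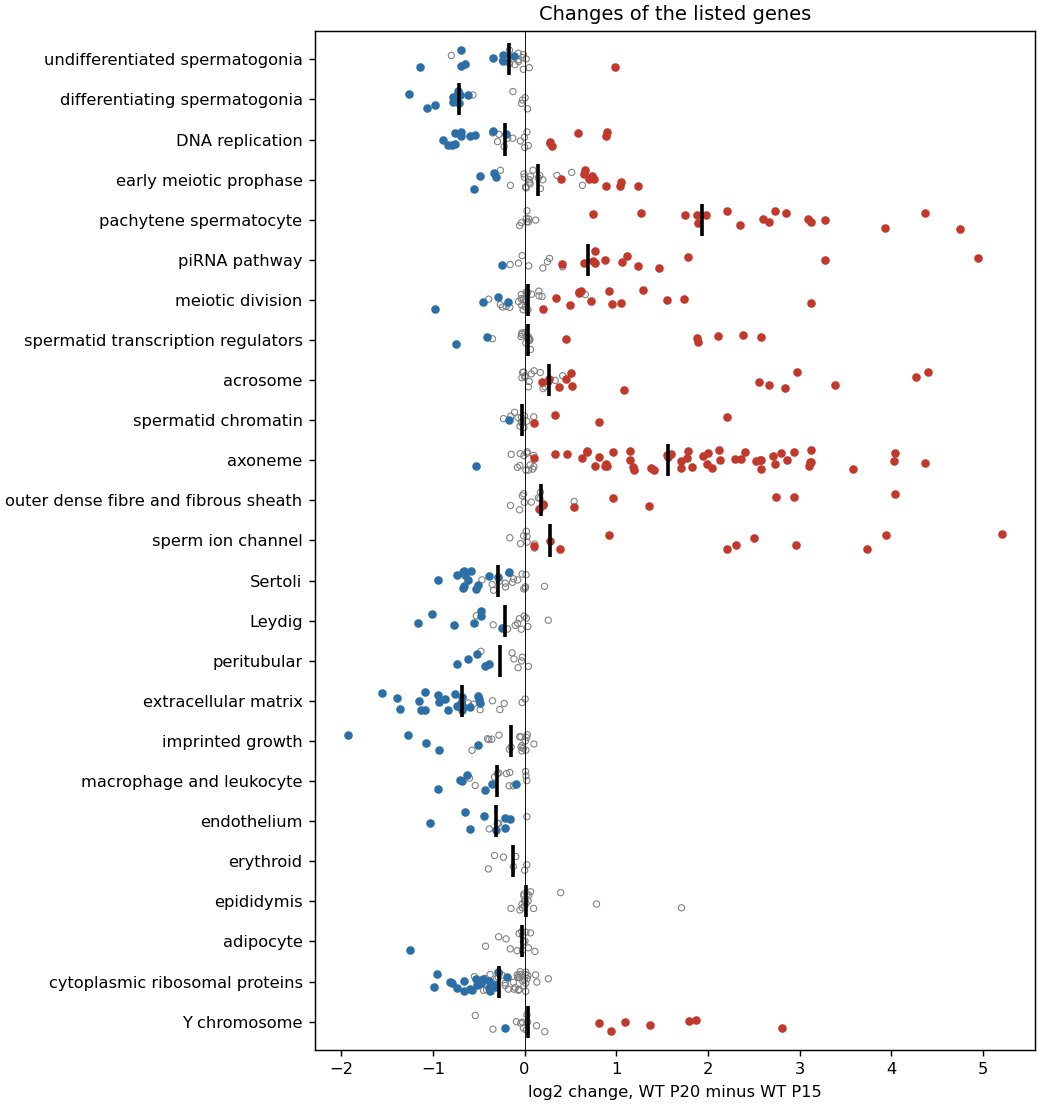
Log2 change (WT P20 minus WT P15) of every measured gene of 23 gene lists, the cytoplasmic ribosomal proteins and the Y chromosome, with called rises in red, called falls in blue, genes that did not pass as open circles and the list median as a black bar. The medians of the pachytene (1.93) and axoneme (1.56) lists stand to the right, and those of the differentiating spermatogonia (-0.71) and extracellular matrix (-0.68) lists to the left.

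Meiotic division genes split by member. Of 40 measured, 14 rose (35%) and 4 fell (10%), against 11.2% and 16.6% of all genes, with a median of 0.04. Aurkc, the Aurora kinase of meiotic chromosomes, had 9.56, 9.85 and 10.17 in the P20 testes, against 8.16, 7.98 and 8.24 in the P15 testes, with a change of 1.73 ± 0.15 (adjusted p = 2.3e-05). Meikin, a regulator of meiosis I kinetochores, changed by 1.55 ± 0.17, Aurka, the spindle pole kinase, by 1.29 ± 0.18 and Boll, an RNA-binding protein of the DAZ family, by 1.05 ± 0.16. Cenpa, the centromeric histone H3 variant, fell, with 12.05, 11.81 and 11.85 in the P20 testes, against 12.73, 12.95 and 12.94 in the P15 testes and a change of -0.97 ± 0.09 (adjusted p = 4.47e-05). Cdc25c, a phosphatase that activates CDK1, changed by -0.29 ± 0.05, and Kif23 and Fzr1, bright members that did not pass, by -0.26 ± 0.17 and -0.01 ± 0.09.

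Among 21 transcription and RNA regulators of spermatids, 6 rose (28.6%) and 2 fell (9.52%), against 11.2% and 16.6% of all genes (median 0.04). Rfx2, the winged helix factor that binds X-box motifs of ciliary and spermatid genes, had 12.61, 12.73 and 13.14 in the P20 testes, against 9.76, 10.04 and 10.94 in the P15 testes. The groups did not overlap, and the change was 2.58 ± 0.32 (adjusted p = 0.000319). Crem, the activator of CRE-driven spermatid genes, measured 10.38, 10.61 and 10.89 in the P20 testes, against 7.92, 8.21 and 8.61 in the P15 testes, a change of 2.38 ± 0.24 (adjusted p = 7.86e-05). Rfx4 changed by 2.11 ± 0.28, Tcfl5, a factor of pachytene spermatocytes, by 1.88 ± 0.20 and Ddx25, an RNA helicase of the chromatoid body, by 1.89 ± 0.16. These sizes are those of each gene's brightest probe and depended on the setting. The 26 alternative settings include the mean over a gene's probes in place of the brightest. Over them Crem ranged from 0.61 to 3.18 and Rfx4 from 0.48 to 3.18, with 0 calls lost. X-linked Taf7l, a TFIID subunit variant of germ cells, fell, with 11.87, 11.96 and 11.83 in the P20 testes, against 12.64, 12.56 and 12.72 in the P15 testes and a change of -0.75 ± 0.10 (adjusted p = 0.000344). Rfx1 and Dot1l did not pass (-0.35 ± 0.14 and 0.05 ± 0.17).

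Acrosome genes rose or did not pass, and the rises differed widely in size, from 0.19 for Spam1 to 4.40 for Spink2. Of 29 measured, 15 rose and 0 fell, with a median of 0.26. Above background on all arrays of a WT group were also 15, but not the same ones. Spaca3 and Spaca7 rose without meeting that rule, and Izumo1 and Spaca1 met it and did not pass. Spink2, a protease inhibitor of the acrosome, had 12.17, 12.25 and 12.57 in the P20 testes, against 7.56, 7.78 and 8.47 in the P15 testes, a change of 4.40 ± 0.27 (adjusted p = 2.67e-06). Acr, the protease acrosin, measured 10.13, 10.73 and 10.88 in the P20 testes, against 7.56, 7.55 and 8.08 in the P15 testes, with a change of 2.85 ± 0.21, and Acrbp, its binding partner, 11.00, 11.67 and 11.79 in the P20 testes, against 8.04, 8.06 and 8.19 in the P15 testes, with a change of 3.39 ± 0.21. Atp8b3, a flippase of the acrosomal membrane, changed by 4.27 ± 0.21 and Zpbp, a protein of the acrosomal matrix, by 2.97 ± 0.22. Izumo1, which binds the egg, and Spaca1 did not pass (0.04 ± 0.05 and 0.20 ± 0.10). The count of rises was 9 with the 6 WT arrays alone, without any 1 of the P15 arrays, or without P20 replicate 2.

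The protamine and transition protein genes, which compact the chromatin of elongating spermatids, were at or near background. Of 17 measured genes of spermatid chromatin, 4 rose and 1 fell (median -0.03), and 5, among them Prm1 and Tnp2, were above background on no WT array. Tnp1, a transition protein shown outside the rule for choosing genes, had 7.66, 7.63 and 7.43 in the P20 testes, against 7.72, 7.75 and 7.57 in the P15 testes. These groups overlapped at the level of background, and the change of -0.11 ± 0.07 did not pass (adjusted p = 0.331). The largest rise was that of Brdt, the bromodomain reader of spermatocytes and spermatids, with 11.34, 11.49 and 11.42 in the P20 testes, against 8.81, 9.22 and 9.59 in the P15 testes and a change of 2.20 ± 0.24 (adjusted p = 0.00012). Psme4, a proteasome activator for histone removal, changed by 0.81 ± 0.15. Chd5 and Rnf8 did not pass (-0.23 ± 0.11 and -0.15 ± 0.06). The count of rises was 2 with the 6 WT arrays alone, with a filter on dim probes, with the replicate block, without P20 replicate 2 or 3, without P15 replicate 1 or 2, or without KO P20 replicate 2.

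The axoneme, the microtubule core of cilia and of the sperm tail, held the most widely shared rise of the lists: of 66 measured genes 52 rose, 1 fell and 13 did not pass, with a median of 1.56. Spag6l, a protein of the central pair, had 12.40, 12.87 and 13.25 in the P20 testes, against 7.65, 8.53 and 9.24 in the P15 testes. Every P20 array lay above every P15 array, and the change was 4.36 ± 0.42 (adjusted p = 5.09e-05). Dnaaf1, a dynein assembly factor, measured 13.27, 13.58 and 14.04 in the P20 testes, against 9.14, 9.46 and 10.19 in the P15 testes and changed by 4.03 ± 0.29, with 1 of 3 probes opposite. Zmynd10, another assembly factor, had 11.12, 11.25 and 11.50 in the P20 testes, against 7.68, 8.12 and 8.69 in the P15 testes and changed by 3.13 ± 0.31 (adjusted p = 5.99e-05). The radial spoke protein Cfap206 changed by 4.04 ± 0.29, the tektin Tekt1 by 3.58 ± 0.46 and the outer arm dynein heavy chain Dnah8 by 3.13 ± 0.21. Drc1, a nexin-dynein regulatory subunit named for its promoter, had 9.60, 10.43 and 10.22 in the P20 testes, against 7.51, 7.74 and 7.78 in the P15 testes and changed by 2.41 ± 0.19. Dnah11, an outer arm heavy chain known from airway cilia, fell, with 9.80, 9.85 and 9.85 in the P20 testes, against 10.57, 10.44 and 10.08 in the P15 testes and a change of -0.53 ± 0.12 (adjusted p = 0.0115), a call lost after cyclic loess. Cfap20 and Dnah7a did not pass (0.09 ± 0.10 and 0.03 ± 0.04).

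Rfx2 and Crem, which both rose, bind known motifs, and the promoters of 3 risen axoneme genes are shown as examples of where those letters stand. The sequences are RefSeq's (GRCm38.p6), from 250 bases before to 50 after the start of the gene and on the gene's strand, and the capitals mark the match: the X-box core GTTGCCA of RFX factors, here on the strand opposite to the gene, in Zmynd10 and Drc1, and the cyclic AMP response element TGACGTCA, its own reverse complement, in Spag6l. Zmynd10 lies on the plus strand (chr9:107547054-107547353) with the match at position 38 from the start, Drc1 on the plus strand (chr5:30281143-30281442) with the match at -12, and Spag6l on the minus strand (chr16:16829314-16829613) with the match at -9.
Zmynd10: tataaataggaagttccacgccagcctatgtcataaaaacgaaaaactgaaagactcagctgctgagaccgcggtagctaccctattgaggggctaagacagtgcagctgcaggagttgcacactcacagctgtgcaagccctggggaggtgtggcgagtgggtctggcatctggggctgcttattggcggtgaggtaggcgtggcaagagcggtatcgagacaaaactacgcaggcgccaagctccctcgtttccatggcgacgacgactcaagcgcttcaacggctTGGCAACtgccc
Drc1: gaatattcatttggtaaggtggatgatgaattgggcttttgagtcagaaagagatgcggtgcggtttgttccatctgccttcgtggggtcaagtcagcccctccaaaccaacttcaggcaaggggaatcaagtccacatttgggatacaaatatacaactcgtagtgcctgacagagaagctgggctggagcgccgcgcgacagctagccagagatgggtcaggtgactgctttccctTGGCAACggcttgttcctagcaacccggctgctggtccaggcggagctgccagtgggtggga
Spag6l: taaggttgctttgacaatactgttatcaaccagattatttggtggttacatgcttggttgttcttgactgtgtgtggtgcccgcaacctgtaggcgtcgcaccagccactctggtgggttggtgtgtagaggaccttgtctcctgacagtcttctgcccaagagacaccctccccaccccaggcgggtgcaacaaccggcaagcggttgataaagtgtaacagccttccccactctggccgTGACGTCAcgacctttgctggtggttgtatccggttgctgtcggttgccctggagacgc

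Searched on both strands, the X-box core was present in 4.38% of all 32851 promoters of the table and in 4.13% of those of genes above background in a WT group. It stood in 7.54% of the promoters of genes higher at P20, in 11% (28 of 254) of those of genes higher by at least 4-fold, and in 3.4% of those of genes lower. In the axoneme list 13 of 59 promoters (22%), from 12 genes, held it. Of these genes Hydin, Cfap20, Cfap74 and Dnah10 did not pass, and the others, among them Tekt1 and Mns1, rose. In the whole list 52 of 66 genes rose. The response element was in 2.94% of the promoters of expressed genes, in 2.87% of those of genes higher at P20, in 2.36% of those higher by at least 4-fold and in 2.61% of those lower. A match is not a binding site, and no factor's binding was measured.

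The other parts of the tail rose in part. Among 20 genes of the outer dense fibres and fibrous sheath, the stiffening structures around the axoneme, 9 rose and 0 fell (median 0.18). Odf4 measured 12.37, 12.82 and 13.00 in the P20 testes, against 7.80, 8.55 and 9.70 in the P15 testes, with P15 replicate 3 again the highest of its group, and changed by 4.05 ± 0.49 (adjusted p = 0.000237). Odf2, also a centrosomal protein, changed by 2.74 ± 0.26, with 2 of 6 probes opposite, Tcp11 by 2.93 ± 0.20 and Spata6, which joins head and tail, by 1.36 ± 0.13. Cabyr and Spag4 did not pass (0.19 ± 0.09 and -0.15 ± 0.16). Of 19 ion channel and transporter genes of sperm, 11 rose and 0 fell (median 0.27). Beside Catsperz, Slc9c1, the sperm sodium-proton exchanger, had 11.08, 11.46 and 11.84 in the P20 testes, against 7.38, 7.53 and 7.64 in the P15 testes, a change of 3.94 ± 0.17 (adjusted p = 3.83e-07) with 1 of 2 probes opposite. C2cd6, a CatSper targeting protein, changed by 3.73 ± 0.22, the pore subunit Catsper2 by 2.96 ± 0.24 and the auxiliary subunits Catsperd and Catsperg2 by 2.50 ± 0.19 and 2.31 ± 0.22. The proton channel Hvcn1 and the potassium channel subunit Lrrc52 did not pass (-0.16 ± 0.06 and 0.03 ± 0.06).

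Germ cells replace several housekeeping proteins by isozymes of their own. In 27 pairs with both genes measured, 15 germ cell isozymes rose and 0 fell (median 0.33), while 5 of the widely expressed counterparts rose and 13 fell (median -0.35). In 7 pairs the germ cell gene rose and its counterpart fell. Among the members of these pairs, Ppp3r1 lost its call in 9 of 26 alternative settings, Tuba1b in 6 and Psma8 in 3. In glycolysis, Pgk2, the retrogene of phosphoglycerate kinase, had 10.76, 11.55 and 11.51 in the P20 testes, against 7.43, 7.47 and 7.67 in the P15 testes. Its X-linked counterpart Pgk1 measured 9.16, 9.06 and 8.79 in the P20 testes, against 9.85, 9.98 and 9.80 in the P15 testes. The changes were 3.75 ± 0.20 for Pgk2 (adjusted p = 1.17e-06) and -0.87 ± 0.17 for Pgk1 (adjusted p = 0.00486). Pgam2 changed by 4.72 ± 0.22 and Pgam1 by -0.50 ± 0.10. Ldhc, the lactate dehydrogenase of sperm, had 14.91, 15.01 and 14.99 in the P20 testes, against 9.89, 11.35 and 12.86 in the P15 testes, the widest P15 spread among the isozymes, and changed by 3.60 ± 0.77. Its counterpart Ldha rose too (2.05 ± 0.18). Gapdh fell (-0.89 ± 0.06) whereas Gapdhs, the form of the fibrous sheath, measured 7.40, 7.56 and 7.52 in the P20 testes, against 7.43, 7.41 and 7.41 in the P15 testes, near background, and did not pass.

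Outside glycolysis the germ cell gene rose and its counterpart fell in 5 of 23 pairs. In 4 of the 23 the counterpart rose: Tbp (1.10) and Capza1 (0.82), whose germ cell relatives Tbpl1 and Capza3 did not pass, and Pabpc1 (0.85) and Ppp3ca (0.88), whose germ cell relatives Pabpc2 and Ppp3cc rose too. The call of Pabpc1 was lost in 7 of 26 alternative settings, among them the WT arrays alone. Cox6b2 changed by 1.87 ± 0.26 and Cox6b1 by -0.71 ± 0.13, both subunits of cytochrome oxidase. Hspa2, the meiotic HSP70, had 14.58, 14.74 and 14.72 in the P20 testes, against 12.31, 12.85 and 13.65 in the P15 testes and changed by 1.75 ± 0.32, against -0.50 ± 0.11 for Hspa8. Ppp3r2, the testis regulatory subunit of calcineurin, had 11.88, 12.13 and 12.32 in the P20 testes, against 7.58, 7.59 and 7.93 in the P15 testes and changed by 4.41 ± 0.14. Papolb, a cytoplasmic poly(A) polymerase, changed by 3.46 ± 0.18, and Papola, which did not pass, by 0.04 ± 0.10. Clgn, a chaperone of the endoplasmic reticulum, measured 12.93, 13.22 and 13.40 in the P20 testes, against 9.65, 10.51 and 11.58 in the P15 testes and changed by 2.60 ± 0.49. Psma8, the proteasome subunit of spermatocytes, changed by 1.98 ± 0.49 (a call lost without WT P20 replicate 2 or WT P15 replicate 1 or 2) and its counterpart Psma7 by -0.68 ± 0.13. Of 9 pairs whose counterpart is X-linked, the counterpart fell in 4 and the germ cell gene rose in 3 and was above background on no WT array in 4.

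**Figure D4:**
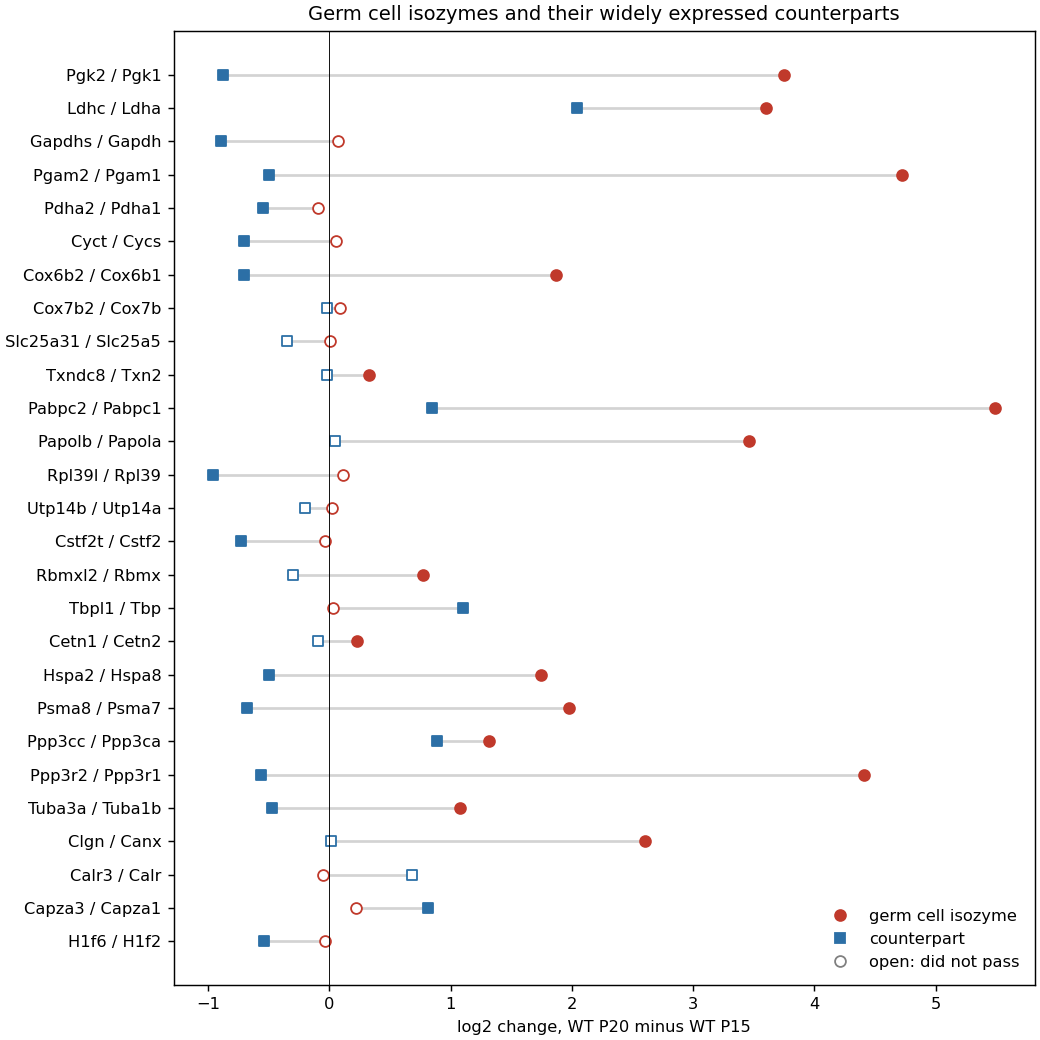
Log2 change (WT P20 minus WT P15) of 27 germ cell isozymes (red circles) and their widely expressed counterparts (blue squares), joined within a pair, with open symbols where a gene did not pass. The longest bars are those of Pgam2 with Pgam1, Ppp3r2 with Ppp3r1, Pabpc2 with Pabpc1 and Pgk2 with Pgk1.

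Nearly all X-linked genes that passed were lower at P20. Of 417 X-linked genes above background on all arrays of a WT group, 5 rose (1.2%) and 217 fell (52%), with a median of -0.35. Of 11374 autosomal genes held to the same rule, 2068 rose (18.2%) and 2917 fell (25.6%), with a median of -0.08. The autosomes ranged from 16.1% to 20.4% risen and from 23.4% to 28.8% fallen, so that the X lay outside the range of all 19. The median log2 intensity of these X-linked genes was 8.35, 8.31 and 8.25 on the P20 arrays, against 8.75, 8.75 and 8.65 on the P15 arrays. The corresponding autosomal medians were 8.77, 8.77 and 8.78, against 8.75, 8.76 and 8.76. Over all 710 measured X-linked genes, 7 rose and 217 fell, and after cyclic loess 12 rose and 151 fell. Over the alternatives the X-linked rises numbered 3 (without P15 replicate 1 or with the WT arrays alone) to 13 (with array weights), and 4 without P20 replicate 2 or P15 replicate 3.

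Bex2, a small adaptor protein, had 10.43, 10.47 and 9.91 in the P20 testes, against 11.95, 11.89 and 11.32 in the P15 testes, the largest X-linked fall at -1.45 ± 0.18 (adjusted p = 0.000334). Rhox8, a homeobox gene of Sertoli cells, measured 11.03, 10.94 and 10.77 in the P20 testes, against 12.34, 12.28 and 11.79 in the P15 testes and changed by -1.22 ± 0.14, and Gpc3, a glypican of mesenchyme, changed by -1.21 ± 0.19 with 1 of 3 probes opposite. Slc6a8, the creatine transporter, changed by -1.12 ± 0.14 and Itm2a by -1.16 ± 0.25, with 1 of 2 probes opposite. The fallen genes included germ cell genes such as Taf7l and Rhox13 (-0.78 ± 0.14). The brightest members that did not pass, Prdx4 and Slc25a5, had changes of -0.26 ± 0.09 and -0.35 ± 0.15. Against the trend, Dmrtc1b had 8.86, 9.08 and 8.90 in the P20 testes, against 8.10, 8.33 and 8.15 in the P15 testes and rose by 0.75 ± 0.14 (adjusted p = 0.00337), and Gm5935 changed by 0.69 ± 0.16, a call lost with the 6 WT arrays alone.

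**Figure D5:**
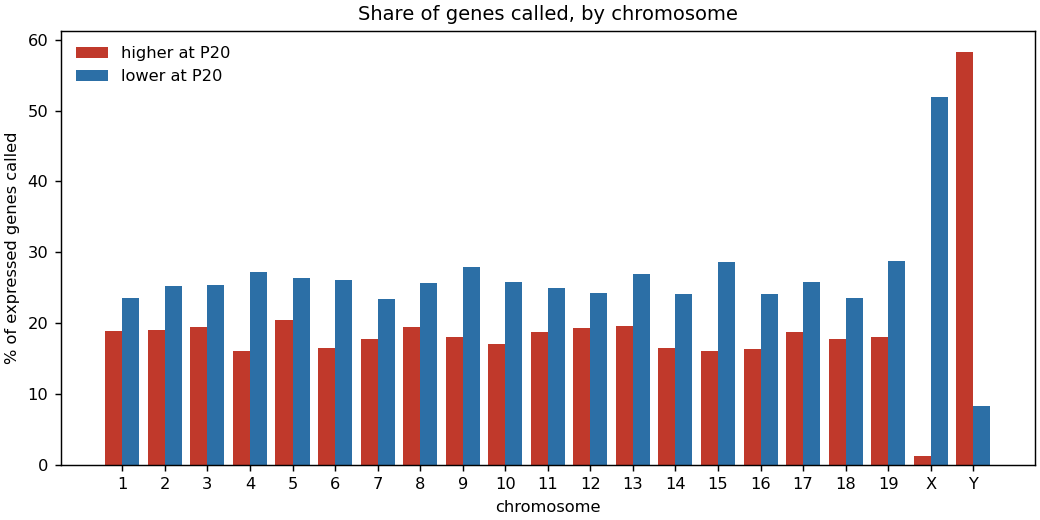
Percent of genes above background in a WT group that were higher (red) or lower (blue) at P20 than at P15, by chromosome. The X chromosome has 1.2% higher and 52% lower among 417 genes, and the Y chromosome 58.3% and 8.33% among only 12.

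On the Y chromosome 7 of 19 measured genes rose and 1 fell. The risen ones were Ssty1, Ssty2 and 5 predicted genes. Families of this kind are present in many near-identical copies, and their probes cannot be assigned to 1 copy. Ssty2, a gene of spermatids, had 8.00, 9.68 and 10.08 in the P20 testes, against 7.46, 7.42 and 7.48 in the P15 testes, and Gm20815 measured 8.90, 10.77 and 11.11 in the P20 testes, against 7.50, 7.44 and 7.41 in the P15 testes. All P15 arrays were below the background threshold, and P20 replicate 1 was more than 1 log2 unit below the other P20 arrays. The changes were 1.80 ± 0.40 for Ssty2 and 2.81 ± 0.43 for Gm20815, at least 3.31-fold and 6.65-fold against the threshold. With the 6 WT arrays alone, 1 Y-linked gene rose in place of 7, and without P20 replicate 2 there were 2. In KO testes Ssty2 changed by -0.00 ± 0.40 and Gm20815 by -0.03 ± 0.43, and the differences between the genotypes did not pass (adjusted p = 0.478 and 0.196). The single-copy genes Usp9y and Eif2s3y did not pass (-0.34 ± 0.16 and -0.54 ± 0.18), and Kdm5d fell by 0.21 on the log2 scale, a call lost without WT P15 replicate 1 or 3, with 75th percentile scaling and after cyclic loess.

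Of 31 Sertoli cell genes, 0 rose and 14 fell, with a median of -0.29. Gja1, the gap junction protein connexin 43, had 12.81, 12.52 and 12.31 in the P20 testes, against 13.13, 13.35 and 13.16 in the P15 testes. The groups did not overlap, and the change was -0.67 ± 0.15 (adjusted p = 0.00829). Amh, the hormone of immature Sertoli cells, measured 7.62, 7.72 and 7.65 in the P20 testes, against 8.60, 8.29 and 8.09 in the P15 testes, a change of -0.66 ± 0.13 (adjusted p = 0.00437). Hsd17b1, an enzyme of estradiol synthesis, changed by -0.94 ± 0.13, Dhh, the hedgehog ligand for Leydig cells, by -0.73 ± 0.13 and Sox9, a testis-determining factor, by -0.67 ± 0.14. Cldn11, the claudin of the blood-testis barrier, had 14.39, 14.36 and 14.27 in the P20 testes, against 14.54, 14.39 and 14.60 in the P15 testes. Its change of -0.17 ± 0.08 did not pass, nor did that of the cystatin Cst9 (-0.12 ± 0.06).

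Leydig cell genes fell in 7 of 18 cases and rose in none (median -0.21). Of the 7, Spock2 lost its call in 11 of 26 alternative settings and Cyb5a in 6. Of the genes of steroid synthesis, Hsd17b3 fell (-0.48 ± 0.10), whereas Cyp11a1 and Star did not pass (-0.18 ± 0.22 and -0.06 ± 0.15). Pdgfra, the receptor of platelet-derived growth factor, had 9.98, 9.95 and 9.89 in the P20 testes, against 11.26, 11.18 and 10.87 in the P15 testes, a change of -1.16 ± 0.19 (adjusted p = 0.00145), and Thbs2, a thrombospondin of the matrix, changed by -0.77 ± 0.16. Cyp17a1, an enzyme of androgen synthesis, varied greatly within the P15 group: it measured 10.81, 10.61 and 10.25 in the P20 testes, against 8.23, 12.11 and 11.44 in the P15 testes. Insl3, the peptide hormone of Leydig cells, had 11.42, 11.56 and 11.29 in the P20 testes, against 10.96, 11.33 and 11.21 in the P15 testes, with overlapping groups. Neither passed (changes of -0.04 ± 1.18 and 0.26 ± 0.31). Of 12 peritubular myoid genes 5 fell and 0 rose (median -0.26), among them the light chain kinase Mylk (-0.52 ± 0.07) and tropomyosin Tpm2 (-0.73 ± 0.15, with 1 of 3 probes opposite), while Myh11 and Actg2 did not pass (-0.47 ± 0.17 and -0.03 ± 0.18). Without P20 replicate 1 or 3 or P15 replicate 1 or 2 each, 3 fell.

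Extracellular matrix genes showed the most widely shared fall among the somatic lists: 21 of 29 fell and 0 rose, with a median of -0.68. Col4a1, a basement membrane collagen chain, had 10.99, 11.23 and 11.18 in the P20 testes, against 12.46, 12.20 and 12.12 in the P15 testes. All P20 arrays lay below all P15 arrays, and the change was -1.13 ± 0.12 (adjusted p = 0.000129). Its partner Col4a2 measured 9.95, 10.20 and 10.06 in the P20 testes, against 11.80, 11.47 and 11.00 in the P15 testes and changed by -1.35 ± 0.16, Col6a1, a chain of the microfibrillar collagen, by -1.15 ± 0.21 and Hspg2, the heparan sulphate proteoglycan perlecan, by -1.09 ± 0.15. Lama2 and Nid2 did not pass (-0.56 ± 0.18 and -0.35 ± 0.12).

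Of 23 imprinted growth genes 0 rose and 5 fell (median -0.15), a share of 21.7% against the 16.6% of all genes called lower. Beside Dlk1 they included Igf2, the fetal growth factor, with 11.34, 11.09 and 11.26 in the P20 testes, against 12.40, 12.32 and 12.20 in the P15 testes and a change of -1.08 ± 0.13 (adjusted p = 0.000199). Ndn, a growth suppressor, changed by -1.28 ± 0.21 and Gnas, a G protein subunit, by -0.93 ± 0.14 with 2 of 10 probes opposite. Cdkn1c and Ppp1r9a did not pass (-0.40 ± 0.19 and -0.15 ± 0.18). The count of falls was 8 with the 6 WT arrays alone, with array weights or without KO P15 replicate 1, and 9 with a filter on dim probes or with normexp at offset 50.

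Blood vessel and immune cell genes were likewise lower or did not pass. Of 12 endothelial genes 8 fell and 0 rose (median -0.31, 5 falls after cyclic loess). Egfl7, a secreted angiogenic factor, had 9.82, 9.93 and 9.75 in the P20 testes, against 10.94, 11.07 and 10.60 in the P15 testes, a change of -1.04 ± 0.12 (adjusted p = 0.000169), and Cdh5, the cadherin of endothelial junctions, changed by -0.60 ± 0.11. Cldn5 and Emcn did not pass (-0.28 ± 0.18 and -0.38 ± 0.19). Of 19 macrophage and leukocyte genes 7 fell and 0 rose (median -0.30). Laptm5, a lysosomal protein of blood cells, measured 9.96, 9.90 and 10.22 in the P20 testes, against 11.05, 11.00 and 10.86 in the P15 testes and changed by -0.94 ± 0.16 (adjusted p = 0.00184). Fcer1g, an Fc receptor adaptor, changed by -0.63 ± 0.13, whereas the mannose receptor Mrc1 and the lysozyme Lyz2 did not pass (0.01 ± 0.13 and -0.28 ± 0.16).

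Cytoplasmic ribosomal proteins fell in 24 of 60 cases and rose in none, with a median of -0.28. Rpl39, which is X-linked, had 12.24, 12.14 and 11.80 in the P20 testes, against 13.12, 13.02 and 12.91 in the P15 testes, a change of -0.96 ± 0.14 (adjusted p = 0.00065). The X-linked Rpl36a and Rps4x changed by -0.98 ± 0.12 and -0.79 ± 0.16, and the autosomal Rps16 by -0.81 ± 0.15. Rpl41 and Rplp1 did not pass (-0.07 ± 0.05 and -0.11 ± 0.09). The number of falls was 13 without P20 replicate 3, 14 without P15 replicate 1, 15 without P15 replicate 2 and 14 with normexp at offset 16.

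Genes of neighbouring tissue gave a check on the dissection. Of 18 epididymis genes 0 passed in limma and 1 had an unadjusted p under 0.05, and 7 were above background on no WT array. Spink8, an epididymal protease inhibitor, nevertheless measured 7.78, 7.82 and 12.09 in the P20 testes, against 7.45, 7.64 and 7.46 in the P15 testes, and Cuzd1, of the same list, 7.73, 7.69 and 9.84 in the P20 testes, against 7.48, 7.90 and 7.52 in the P15 testes. The high values of both were on P20 replicate 3 alone, and the SEs of their changes were 1.48 and 0.90. A test of group means has little power where tissue is present on single arrays, so nothing about the dissection is concluded from the 0 that passed. The median log2 intensity over the epididymis list was 7.47, 7.47 and 7.54 on the P20 arrays, against 7.48, 7.47 and 7.47 on the P15 arrays, while its summed intensity was 2425, 2438 and 7573 on the P20 arrays, against 2424, 2416 and 2383 on the P15 arrays. The part of such tissue in other results of P20 replicate 3 was not tested. Of 7 red blood cell genes 0 passed and 0 had an unadjusted p under 0.05, with Hbb-bs at -0.39 ± 0.49. Of 16 adipocyte genes 1 fell, Lpl, a lipoprotein lipase (-1.24 ± 0.22, with 1 of 2 probes opposite). The summed intensity of the adipocyte list, Lpl included, was 2481, 2560 and 2976 on the P20 arrays, against 3620, 4024 and 3223 on the P15 arrays. Its median log2 intensity was 7.48, 7.52 and 7.62, against 7.51, 7.59 and 7.60.

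The same days were examined in KO testes, where 2563 genes were higher (13.4%) and 4125 lower (21.6%) at P20. A test of the difference between the age changes of the genotypes passed for 14 genes (0.0735%), and 1693 genes had an unadjusted p under 0.05. That count was 42 without WT P20 replicate 1, 2 without WT P15 replicate 2 and 1 with the replicate number as a block. Among the lists above, the difference passed for 0 members of each except the adipocyte list, where it passed for Adipoq. The median changes of the lists were 1.93 in WT and 2.22 in KO testes for pachytene genes, 1.56 in WT and 1.75 in KO testes for the axoneme, and 0.70 in WT and 0.83 in KO testes for the piRNA pathway. They were -0.71 in WT and -0.92 in KO testes for differentiating spermatogonia, -0.68 in WT and -0.79 in KO testes for the extracellular matrix, and -0.29 in WT and -0.40 in KO testes for Sertoli cells. Acrosome genes had medians of 0.26 in WT and 0.03 in KO testes, with 15 rises in WT and 9 in KO testes. Expressed X-linked genes had medians of -0.35 in WT and -0.46 in KO testes, with 217 falls in WT and 290 in KO testes. These list medians were not tested against each other. Markers of neighbouring tissue also moved in KO testes: 4 of 18 epididymis genes rose and 1 fell there, where 0 passed in WT, and 6 of 16 adipocyte genes rose and 1 fell, where 0 rose and 1 fell in WT. The summed intensity of the epididymis list was 16252, 2418 and 17312 on the KO P20 arrays, against 2361, 2364 and 2378 on the KO P15 arrays, so that KO P20 replicates 1 and 3 stood apart. That of the adipocyte list was 4077, 4130 and 4475 on the KO P20 arrays, against 3324, 4069 and 3319 on the KO P15 arrays. Their part in the genotype difference was not tested.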

How the data were processed

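Per the labels, column-purified, DNase-treated total RNA of testis was biotin-labelled for Illumina bead arrays. BeadStudio is the software named in the submitters' processing notes, without a version. The deposited intensity values of the authors were linear and quantile-normalised: quantile normalisation of their non-normalised intensities gave values differing by a median of 6.59e-05 and at most 0.0124 (log2). Array medians before normalisation were 128.2 to 143.4.

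An offset of 50 was added and log2 taken. All 45281 probes were fitted with limma 3.58.1 (R 4.3.3, a mean per group for 4 groups, residual df 8, prior df 2.14) and p-values adjusted by Benjamini-Hochberg over all probes, with a threshold of 0.05. The fitting was tested on simulated data. Background was each array's mode plus 1.645 SDs of the values below it. Where no array of the lower group exceeded it, folds are lower bounds. Of the probes 34885 had 1 symbol in the array's annotation, 18 several and 10378 none. Chromosomes were those of RefSeq (GRCm38.p6). No source used here gives the probes' build.

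The members and lists were chosen with earlier results of these data known. The genes named were the 15 largest rises and falls with non-overlapping groups and, of each list, up to 6 by size, up to 3 against the list's median and the 2 brightest that did not pass, with all isozyme pairs and 5 per sign of the genotype difference. Not all are printed. P-values measure the spread between the biological repeats within the 4 groups of 3 arrays, pooled over WT and KO, and not that of the WT repeats alone. The correlations of deviations of same-numbered WT arrays were 0.08, 0.17 and 0.16, against -0.14 to 0.04 for differently numbered ones. The same-numbered values were thus the highest, but small. The labels name no pairing, and the main fit did not pair samples. A fit with the replicate number as a block is given below.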

Additional observations from a re-analysis of the deposited data

Results flagged for a closer look

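The difference between the WT and the KO change from P15 to P20 (WT change minus KO change, log2) passed for 9 genes named by size, each over 3 arrays per group in limma. WT testes changed more upward in 4 of them. For 4930519G04Rik, a RIKEN clone gene, the changes were 1.13 ± 0.09 in WT and 0.03 ± 0.09 in KO testes, a difference of 1.11 (adjusted p = 0.0267). Gldnos, an opposite-strand transcript of Gldn by its name, changed by 1.06 ± 0.07 in WT and 0.04 ± 0.07 in KO testes, a difference of 1.02 (adjusted p = 0.0127). Ifi213, of the interferon-activated p200 family, differed by 0.90 (WT 0.68, adjusted p = 0.0474, with 1 of 2 probes opposite in WT) and Tomm40l, a mitochondrial import protein, by 0.55 (WT 0.11, adjusted p = 0.04).

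In the other 5 the WT change was the lower one. Adipoq, the adipocyte hormone adiponectin, changed by -0.20 ± 0.13 in WT and 1.33 ± 0.13 in KO testes, a difference of -1.53 (adjusted p = 0.0304). Its log2 intensity was 7.49, 7.52 and 7.85 on the WT P20 arrays, against 7.53, 8.05 and 7.89 on the WT P15 arrays, and 8.78, 9.02 and 8.87 on the KO P20 arrays, against 7.58, 7.51 and 7.60 on the KO P15 arrays. In KO testes 6 of 16 adipocyte and 4 of 18 epididymis genes rose, against 0 of each in WT testes, and the part of neighbouring tissue in this difference was not tested. For 4931406B18Rik the difference was -1.24 (WT 0.17, adjusted p = 0.000142), for Psg23 -0.80 (WT 0.07, adjusted p = 0.0267), for Gm9903 -0.72 (WT 1.20, adjusted p = 0.0333) and for Dnajc7 -0.69 (WT -0.30, adjusted p = 0.0474).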

How the results depend on the processing

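Of 206 named genes called between P20 and P15, 160 kept call and direction in all 26 alternatives and 46 lost the call in at least 1; 184 to 206 kept it under other settings and 174 to 204 when an array was left out. Fzr1 and Tdrkh, uncalled, turned to 0.32 and 0.14 and passed with the mean over a gene's probes. The offset, normexp, array weights, dim filter, trend and WT-only fits moved no count of P20 against P15 calls over all probes or all genes by over 1.5 times, but they did move counts within gene lists: acrosome rises were 9 in place of 15 with the WT arrays alone, DNA replication rises 3 in place of 5 with an intensity trend or normexp at offset 16, and the imprinted, ribosomal, spermatid chromatin, X-linked and Y-linked counts moved as given with those lists. Cyclic loess left 3367 probes and 1974 genes lower. Asking for a fold of at least 2 left 1159 probes and 742 genes higher and 233 probes and 148 genes lower. Leaving out an array gave 3078 to 3951 probes higher, 3503 to 6123 lower (3503 without WT P20 replicate 3), and 1781 to 2251 genes higher and 2134 to 3596 lower. The replicate number as a block gave 3454 probes and 1974 genes higher, 4624 probes and 2757 genes lower, and 1 probe and 1 gene for the genotype difference in place of 25 and 14.

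That difference passed for 15 probes with 75th percentile scaling, for 8 probes and 7 genes with cyclic loess, 67 and 41 with an intensity trend, 41 and 22 with normexp at offset 16, and 6 and 4 with a fold of at least 2. Leaving out an array gave 2 to 69 probes and 2 to 42 genes, highest without WT P20 replicate 1. The causes of these shifts were not tested. Without detection calls, negative controls or slides in the tables, neqc, a detection filter and a slide block were not run. Signals near background limit what can be said of dim genes.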

Other observations

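Of 10378 probes with no gene name, 609 (5.87%) were higher and 783 (7.54%) lower at P20, against 8.99% and 13.1% of the 34885 probes with 1 gene symbol. The 2 largest changes in each direction were taken from unnamed probes whose groups did not overlap. ILMN_1239281 measured 13.34, 13.48 and 13.83 in the P20 testes, against 7.49, 7.63 and 8.39 in the P15 testes, a change of 5.72 ± 0.23 (SE, limma adjusted p = 2.39e-07). ILMN_1222330 measured 12.90, 13.09 and 13.35 in the P20 testes, against 7.58, 7.55 and 8.17 in the P15 testes, a change of 5.35 ± 0.18. Among the falls, ILMN_1256343 measured 9.06, 8.89 and 9.01 in the P20 testes, against 11.12, 10.80 and 10.32 in the P15 testes, and ILMN_1250392 measured 7.92, 7.92 and 7.91 in the P20 testes, against 10.10, 9.35 and 9.13 in the P15 testes.

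Genes known only by RIKEN clone names made up 19 of the 263 genes higher by at least 4-fold, and 635 of all 19057 genes. Of the 2132 genes called higher, 1192 had several probes, and in 408 of these another probe had the opposite sign. Such probes were counted by sign alone, also where they were dim or hardly changed. The corresponding numbers for the 3155 genes called lower were 1938 and 584.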
